A study of Mus musculus with 18 samples.

Results

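10 genes for transcription factors of mesenchymal cells were followed in cultured mouse mammary fibroblasts. They were taken by name from a count table of 55486 genes, and all 10 were in it: Snai1, Snai2, Zeb1, Zeb2, Twist1, Twist2, Prrx1, Prrx2, Tcf21 and Osr1. Of these, 9 were among the 14273 genes with enough reads to be tested, and Tcf21 was not. They are picked by name, and the names were chosen with earlier results of these data known.

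Snail (Snai1, Snai2) and Zeb (Zeb1, Zeb2) proteins are zinc finger repressors that bind E-boxes, short DNA motifs, in the control regions of epithelial genes such as Cdh1, which encodes E-cadherin. Twist1 and Twist2 are basic helix-loop-helix factors that pair with E proteins, Prrx1 and Prrx2 are paired-related homeobox factors of limb and connective tissue mesenchyme, and Osr1 and Tcf21 mark mesenchymal progenitors of several organs. The same genes are best known from epithelial-mesenchymal transition, but resting fibroblasts express most of them.

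The cells were normal fibroblasts (NFs) from mammary glands of FVB/n mice, sorted as CD26- or CD26+ cells from adult females, after removal of cells with EpCAM, CD49f, CD45 or CD31 on their surface. Several mice were pooled per sort, and cells were grown on collagen I for a few passages. CD26- NFs and CD26+ NFs then spent 7 days in control conditioned medium (n = 3 libraries each) or in conditioned medium (CM) of WEPtn tumor cell lines (n = 6 each). WEPtn mice carry WapCre;Cdh1F/F;PtenF/F and model invasive lobular carcinoma, while per the study's methods the NF donors had no WapCre and carried either mTmG or the floxed alleles Cdh1F/F;PtenF/F. The lines 13-MCB-17, 10-SJK-221, 18-MCB-12, 13-MCB-44, 13-MCB-90 and 13-MCB-138 each gave CM to 1 culture of either cell type, so lines are part of the spread within a CM group. The labels do not say whether the libraries of a group came from separate animals or sorts, nor whether the control libraries were separate cultures, and the p-values measure only the spread between these libraries.

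Library totals ran from 9725723 to 14585349 counts. Dpp4, which encodes CD26, had at most 0.171 CPM (read counts scaled to the library size) in CD26- control libraries and at most 0.0809 CPM in CD26+ control libraries, so its RNA did not separate the sorted cells in control medium. In CM its mean was 0.371 ± 0.281 CPM in the CD26- and 3.54 ± 2.56 CPM in the CD26+ group (SD, n = 6 each). Fibroblast markers were present in every library, with a summed level of 14899 to 16642 CPM in CD26- control, 8056 to 19798 CPM in CD26- CM, 60193 to 77001 CPM in CD26+ control and 27313 to 50319 CPM in CD26+ CM libraries. Markers of luminal epithelium were present too, although EpCAM-positive cells had been sorted out. Their 10 genes summed to 3367 to 3789, 2278 to 3617, 498 to 940 and 482 to 1160 CPM in the same order of groups. At least 3 of them were under 1 CPM in every library, Elf5 among them. Kit went the other way, with a mean of 0.321 CPM in CD26- and 1.08 CPM in CD26+ control libraries. The 8 basal epithelial markers summed to 1084 to 1328, 526 to 974, 285 to 411 and 151 to 519 CPM. In bulk RNA, fewer cells of a type and less RNA per cell cannot be told apart.

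The promoter windows of 5 genes are shown as letters, and no result of the counts rests on them. Each covers 300 bases around a RefSeq start (GRCm38.p6), mostly upstream of it, and reads 5′ to 3′ on the gene's strand. Capitals mark a match on either strand to CAGGTG (the E-box of Snail and Zeb factors), CATCTG (an E-box of Twist factors), TAATTA (a homeobox core) or TATAAA. Both E-boxes are forms of CANNTG. Snai1 had the highest log2 fold change between the cell types of the 9 tested factor genes in the fit without a covariate. Krt18 and Dsp are epithelial genes that were lower in CD26+ NFs, and Twist2 and Prrx1 rose in CM. Whether any of these genes acts on another was not tested.
Snai1, chr2:167537945-167538244 (+ strand): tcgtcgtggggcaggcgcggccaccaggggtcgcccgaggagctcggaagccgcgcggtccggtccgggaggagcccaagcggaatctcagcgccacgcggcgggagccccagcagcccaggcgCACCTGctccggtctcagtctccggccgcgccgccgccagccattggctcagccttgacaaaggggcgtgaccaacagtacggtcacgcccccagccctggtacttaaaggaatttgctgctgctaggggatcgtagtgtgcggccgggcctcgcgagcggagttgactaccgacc
Krt18, chr15:102027966-102028265 (+ strand): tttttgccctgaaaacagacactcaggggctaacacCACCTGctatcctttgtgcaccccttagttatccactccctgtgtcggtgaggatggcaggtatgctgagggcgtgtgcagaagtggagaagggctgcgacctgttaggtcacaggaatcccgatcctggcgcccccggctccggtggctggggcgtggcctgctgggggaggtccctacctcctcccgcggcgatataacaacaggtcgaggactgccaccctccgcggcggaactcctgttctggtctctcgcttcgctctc
Dsp, chr13:38151044-38151343 (+ strand): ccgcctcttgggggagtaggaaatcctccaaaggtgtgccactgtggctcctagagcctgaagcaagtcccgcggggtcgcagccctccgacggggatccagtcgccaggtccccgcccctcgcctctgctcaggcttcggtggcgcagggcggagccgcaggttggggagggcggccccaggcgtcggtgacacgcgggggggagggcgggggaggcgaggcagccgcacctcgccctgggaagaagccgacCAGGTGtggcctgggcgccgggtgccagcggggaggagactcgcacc
Twist2, chr1:91801211-91801510 (+ strand): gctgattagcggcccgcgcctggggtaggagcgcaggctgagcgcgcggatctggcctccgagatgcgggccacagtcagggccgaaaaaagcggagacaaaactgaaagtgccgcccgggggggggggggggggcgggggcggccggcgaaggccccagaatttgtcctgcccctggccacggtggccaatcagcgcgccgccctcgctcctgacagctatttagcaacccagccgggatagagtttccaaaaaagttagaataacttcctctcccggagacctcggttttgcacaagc
Prrx1, chr1:163313601-163313900 (- strand): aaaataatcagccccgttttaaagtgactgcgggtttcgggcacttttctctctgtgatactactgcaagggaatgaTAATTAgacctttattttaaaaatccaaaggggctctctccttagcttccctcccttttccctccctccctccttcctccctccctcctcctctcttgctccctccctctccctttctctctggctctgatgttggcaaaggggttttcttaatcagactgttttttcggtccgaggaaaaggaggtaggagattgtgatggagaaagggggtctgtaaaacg
Windows were found for 7 of the 10 factor genes, and for Snai2, Zeb1 and Osr1 none was matched. Of 10 windows of these 7 genes, 1 held CAGGTG, that of Snai1. Among 26 epithelial genes (16 junction and keratin genes and 10 epithelial factors), 18 had a window, and Cdh1 had none. Of their 24 windows 19 (79.2%) held CAGGTG, where 20.2% of all 32851 windows did. Some windows of the same gene overlap, and by gene it was 15 of the 18. The 16 junction and keratin genes were listed as targets, so this share depends on that choice and is not separate evidence. TAATTA stood in the Prrx1 window and in 5.29% of all windows. TATAAA was found in the Twist1 window and in 13.6% of all, and CATCTG in no window of the factor genes and in 17.2% of all. The Twist2 window held none of the 4. A match is a description of letters and was not tested as a binding site.

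Per kilobase of exon, Snai1 and Prrx1 were the most abundant of the 10 genes in every group. In CD26- control NFs Snai1 had 54.8 ± 8.49 and Prrx1 47.5 ± 1.58 CPM per kb (SD, n = 3), which lay within the spread of Snai1. Prrx2 (18.9 ± 3.15), Snai2 (18.2 ± 0.607) and Twist1 (18.1 ± 1.48 CPM per kb) came next and were not apart from each other by more than their SD. Twist2 had 8.48 ± 0.560 CPM per kb, above Osr1 (6.42 ± 0.259), Zeb2 (6.28 ± 0.402) and Zeb1 (6.06 ± 0.337), whose spreads overlapped. In CD26+ NFs in CM the order on the same scale was Snai1 (159 ± 22.8), Prrx1 (132 ± 14.3), Snai2 (42.3 ± 2.78), Twist1 (33.2 ± 1.51), Prrx2 (26.9 ± 5.21), Twist2 (24.2 ± 7.83), Zeb2 (15.4 ± 1.64), Osr1 (13.1 ± 2.94) and Zeb1 (8.34 ± 1.56 CPM per kb, SD, n = 6). Neighbors in this order overlapped in their SD, except Prrx1 and Snai2, Snai2 and Twist1, and Osr1 and Zeb1.

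**Figure D1:**
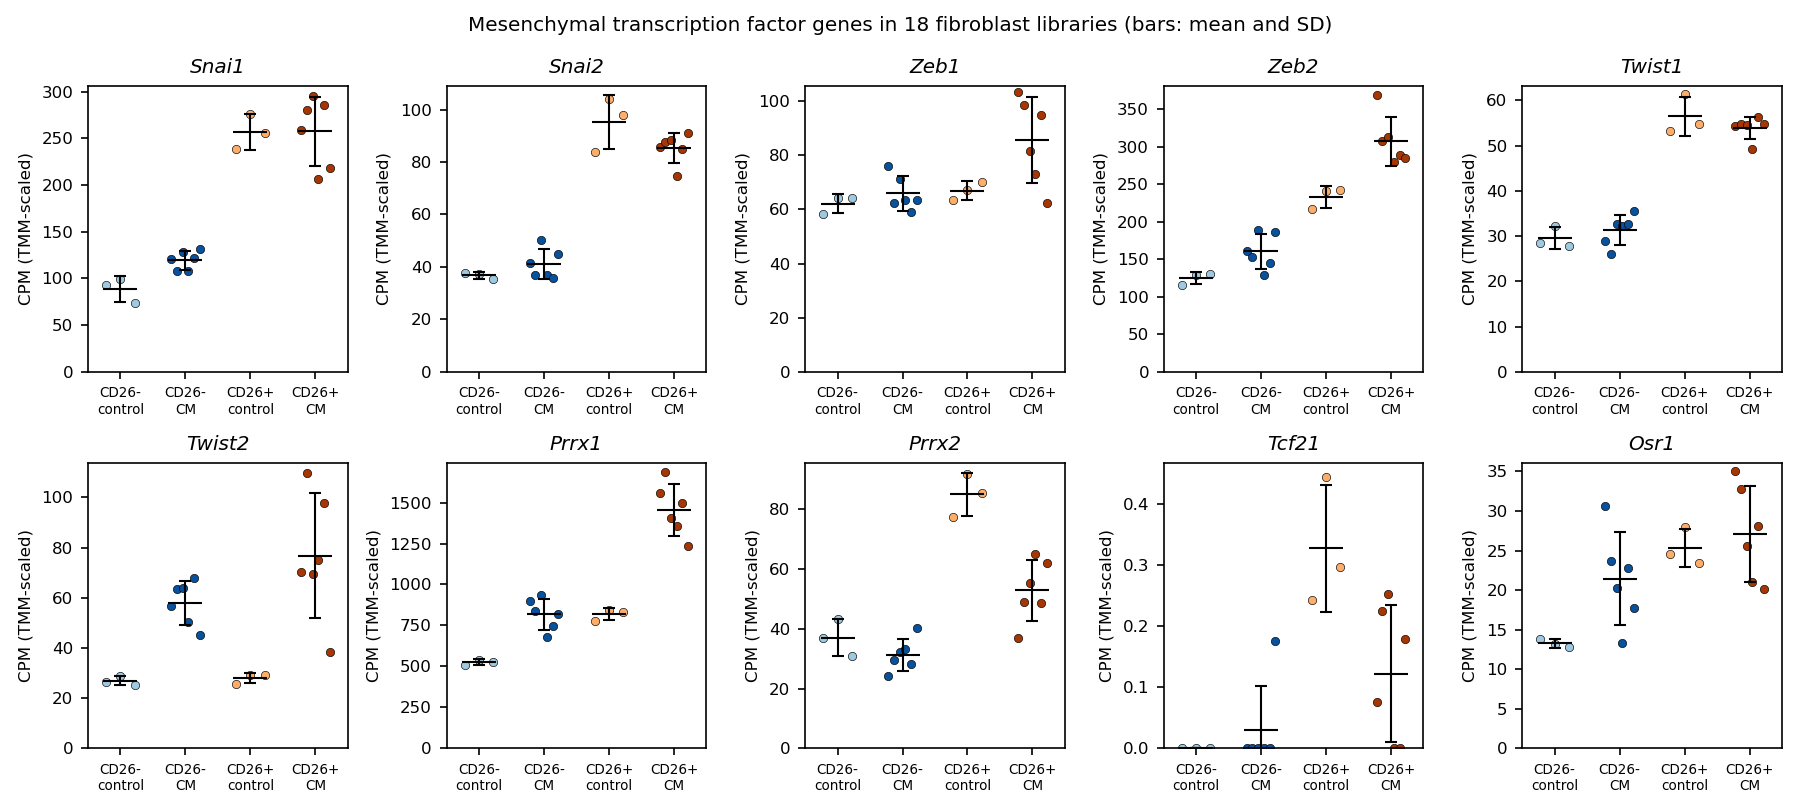
CPM (vertical axis, scaled to the TMM library size, from 0) of the 10 factor genes in each library of the 4 groups (horizontal axis). Points are libraries and bars the mean and SD. Snai1, Snai2, Zeb2, Twist1, Prrx1, Prrx2 and Osr1 were higher in all 3 CD26+ than in all 3 CD26- control libraries, Twist2 and Prrx1 rose in CM in both cell types, and Tcf21 reached at most 0.444 CPM. The share of all genes that lacked overlap was not counted.

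The first comparison asked how CD26+ and CD26- NFs differed in control medium. Of the 9 tested factor genes 7 were higher in CD26+ NFs and 0 lower at a false discovery rate (FDR) under 0.05 in edgeR's quasi-likelihood test, adjusted over all 14273 genes. Of all tested genes 25% were higher and 25.4% lower. The median log2 fold change of the 9 was 0.94, against 0.01 for all tested genes. With the limit of a log2 fold change over 2 or under -2, which 5.97% of all genes passed, 0 of the 9 were called. How many of all tested genes lacked overlap between groups was not counted, in this or any later comparison. Lack of overlap is therefore given only as a description of the libraries.

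Snai1 had 93.1, 99.9 and 73.4 CPM in the CD26- control libraries and 238, 277 and 256 CPM in the CD26+ control libraries. The groups did not overlap, and the log2 fold change was 1.53 ± 0.13 (SE, edgeR FDR = 1.14e-07). Snai2, its paralogue, had 37.6, 37.3 and 35.3 CPM in CD26- and 83.9, 104 and 97.9 CPM in CD26+ control libraries, a log2 fold change of 1.38 ± 0.11 (edgeR FDR = 5.15e-08). Both Snail genes thus stood well apart between the cell types, with no library in between.

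The Zeb genes did not move alike. Zeb2 had 116, 129 and 131 CPM in CD26- and 217, 241 and 242 CPM in CD26+ control libraries, again without overlap (log2 fold change 0.90 ± 0.12, edgeR FDR = 1.24e-05). Zeb1 had 58.2, 64.3 and 64.0 CPM in CD26- and 63.5, 67.2 and 70.2 CPM in CD26+ control libraries. These overlapped, and the log2 fold change of 0.11 had a 95% interval from -0.19 to 0.41 (edgeR FDR = 0.564).

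The Twist pair parted in the same way. Twist1 had 28.5, 32.3 and 27.8 CPM in CD26- and 53.2, 61.4 and 54.8 CPM in CD26+ control libraries (log2 fold change 0.94 ± 0.09, edgeR FDR = 4.64e-07). Twist2 had 26.5, 28.9 and 25.4 CPM in CD26- and 25.7, 29.3 and 29.3 CPM in CD26+ control libraries. Its log2 fold change was 0.06, with a 95% interval from -0.48 to 0.61 (edgeR FDR = 0.858), and the groups overlapped.

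Both homeobox genes were higher in CD26+ NFs. Prrx1 had 507, 542 and 529 CPM in CD26- and 779.8, 844 and 835 CPM in CD26+ control libraries (log2 fold change 0.64 ± 0.11, edgeR FDR = 1.26e-04). Prrx2 had 37.0, 43.1 and 30.8 CPM in CD26- and 77.4, 91.9 and 85.6 CPM in CD26+ control libraries (log2 fold change 1.20 ± 0.18, edgeR FDR = 3.46e-05). Neither gene overlapped between the groups.

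Osr1, a zinc finger gene of the odd-skipped family, had 13.8, 13.2 and 12.8 CPM in CD26- and 24.6, 28.0 and 23.4 CPM in CD26+ control libraries (log2 fold change 0.94 ± 0.24, edgeR FDR = 0.00354). Tcf21, a helix-loop-helix gene of several fibroblast lineages, had 0 counts in all 3 CD26- control libraries and 3, 6 and 4 counts in the CD26+ ones. With a floor of 3 counts over the CD26- group, its pooled level in CD26+ control NFs was at least 4.06-fold higher, from 13 counts in all. Without the filter on low counts Tcf21 could be tested and passed in this comparison (edgeR FDR = 0.00983), while DESeq2 gave it no adjusted p. In CM it had 2 counts over 6 CD26- libraries and 9 counts over 6 CD26+ libraries, so it stood near the limit of detection in all groups.

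**Figure D2:**
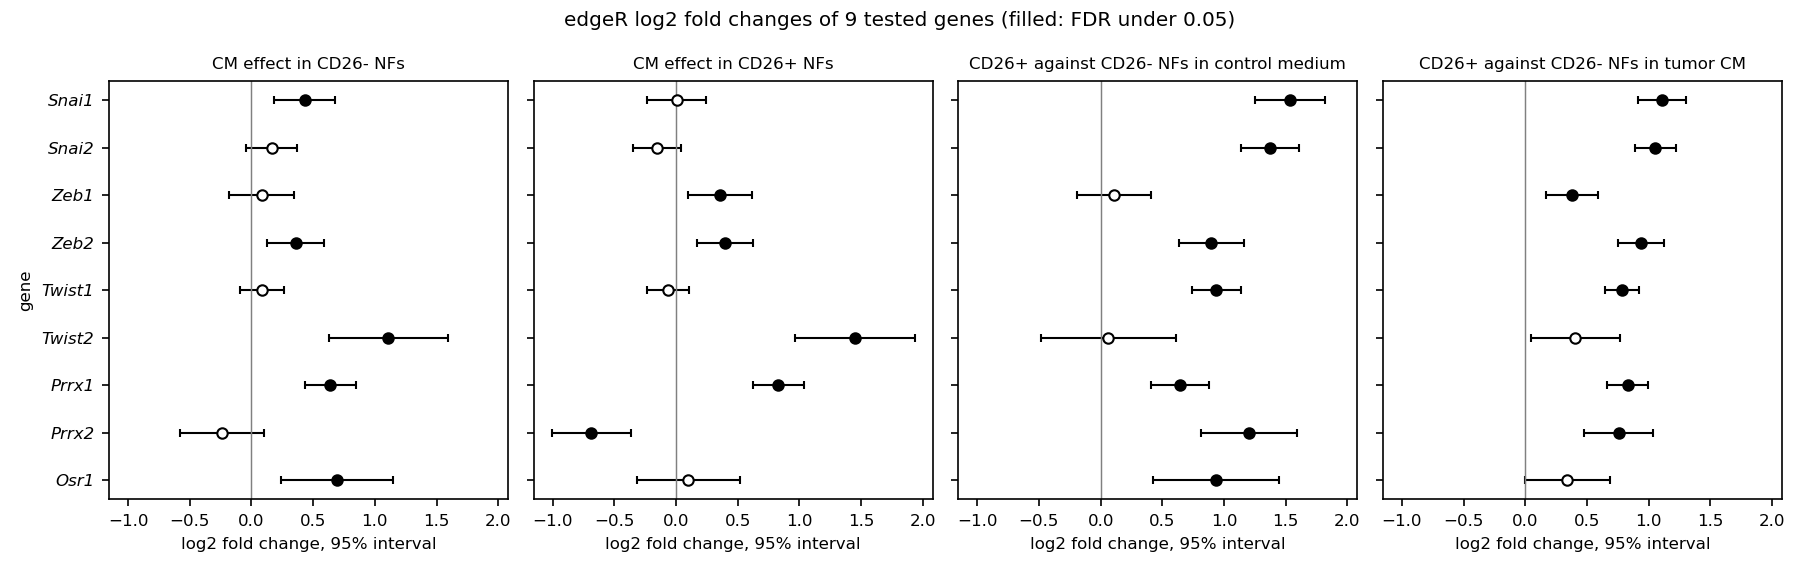
Log2 fold change of the 9 tested factor genes (horizontal axis) in the 4 group comparisons, with 95% intervals from the edgeR fit; filled points passed an FDR under 0.05. The 2 right panels hold 7 filled points each, all above 0, and in the 2 left panels Twist2 lies farthest to the right at 1.11 and 1.45.

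In tumor CM 7 of the 9 were again higher in CD26+ NFs and 0 lower, where 29.3% of all tested genes were higher and 29.3% lower. The median of the 9 was 0.79, against -0.00 for all, and 0 of them passed the fold limit that 4.16% of all genes passed. Snai1 ran from 107 to 132 CPM in CD26- (median 121) and from 207 to 295 CPM in CD26+ CM libraries (median 269.7), a log2 fold change of 1.11 ± 0.09 (edgeR FDR = 3.01e-08). None of the 6 libraries of either group overlapped, as was also the case for Snai2 (1.06 ± 0.08), Zeb2 (0.94 ± 0.09), Prrx1 (0.83 ± 0.08) and Twist1 (0.79 ± 0.07). The share of all genes without overlap was not counted here either. Prrx2 (log2 fold change 0.76 ± 0.13, edgeR FDR = 9.13e-05) overlapped in 1 library. Zeb1 passed here with 0.38 ± 0.10 (edgeR FDR = 0.00362), from 59.0 to 76.0 CPM in CD26- (median 63.4) to 62.5 to 103 CPM in CD26+ CM libraries (median 88.1).

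Twist2 (log2 fold change 0.41 ± 0.17, edgeR FDR = 0.0513) and Osr1 (0.34 ± 0.16, edgeR FDR = 0.0823) missed the threshold in CM. With the CM line as a replicate block both passed, Twist2 at 0.36 (edgeR FDR = 0.00413) and Osr1 at 0.35 (edgeR FDR = 0.000309), so that 9 of 9 were called. That fit called 8999 of all 14273 genes, in place of 8360 without the block. Osr1 was higher in the CD26+ culture for 6 of 6 lines and Twist2 for 5 of 6, the exception being 13-MCB-138 with 45.3 CPM in CD26- and 38.4 CPM in CD26+ NFs. Without that CD26+ library (replicate 18), Twist2 passed as well, with 0.54 (edgeR FDR = 0.000920), and without the CD26- library of 13-MCB-90 (replicate 8) with 0.46 (edgeR FDR = 0.0443). It also passed without the filter on low counts (0.43, edgeR FDR = 0.0376). Osr1 passed without replicate 4 (0.47), 16 (0.40) or 18 (0.41), with an edgeR FDR of 0.0147, 0.0498 and 0.0361.

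Epithelial genes moved with the cell type in the other direction. All 16 junction and keratin genes were lower in CD26+ NFs in both media, where 25.4% of all tested genes were lower in control medium and 29.3% in CM. Among them was Cdh1, at 458 ± 3.05 CPM in CD26- against 82.4 ± 32.1 CPM in CD26+ control NFs (SD, n = 3). Krt18, a keratin gene of simple epithelia, had 1534 ± 94.5 against 279 ± 91.6 CPM, and Dsp, a desmosome gene, 199 ± 17.0 against 37.0 ± 10.2 CPM. Of 9 tested epithelial factors, which oppose Snail and Zeb activity, 9 were lower in control medium and 8 in CM, beside the same 25.4% and 29.3% of all genes. Grhl2, one of them, was at 29.0 ± 1.09 CPM in CD26- against 5.36 ± 2.25 CPM in CD26+ control NFs. Whether epithelial RNA has a part in the differences of the factor genes was not tested beyond a covariate.

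With the mean log2 CPM of 15 luminal and basal epithelial markers as a covariate, 5 of the 9 remained called in control medium: Snai1 (1.17), Snai2 (1.02), Zeb2 (0.68), Twist1 (0.85) and Prrx2 (1.31). Prrx1 (log2 fold change 0.31, edgeR FDR = 0.180) and Osr1 (0.39, edgeR FDR = 0.499) did not. Over all 14273 genes 2718 were called with the covariate in control medium, in place of 7186. In tumor CM 6 of the 9 remained, and Zeb1 did not (0.19, edgeR FDR = 0.485). Over all genes it was 3613 in CM, in place of 8360. The covariate ran from 6.02 to 6.34 in CD26- and from 4.35 to 4.98 in CD26+ control libraries, so it and the cell type overlapped in none of them.

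**Figure D3:**
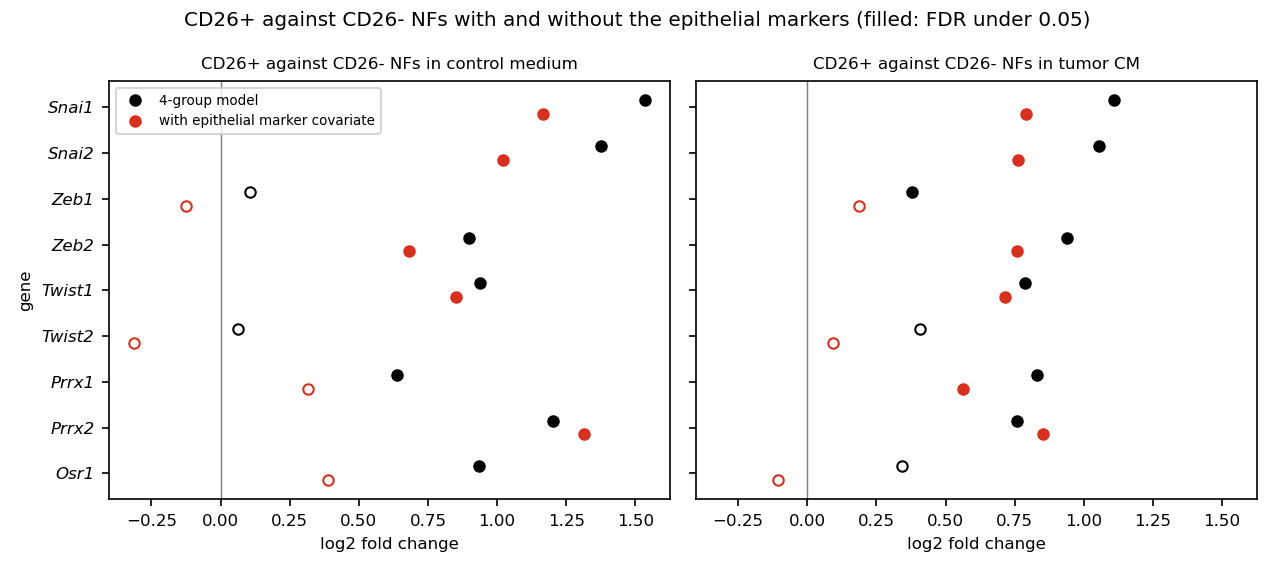
Log2 fold change of CD26+ against CD26- NFs (horizontal axis) for the 9 tested factor genes, from the 4-group fit (black) and with the epithelial marker covariate (red); filled points passed an edgeR FDR under 0.05. Snai1, Snai2, Zeb2, Twist1 and Prrx2 stayed filled in both media, while Osr1 moved from 0.94 to 0.39 in control medium and from 0.34 to -0.11 in CM.

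The next comparisons asked what tumor CM did within each cell type. Their control libraries are those already compared between the cell types. In CD26- NFs 5 of the 9 factor genes rose and 0 fell, where 7.88% of all tested genes rose and 7.28% fell. In CD26+ NFs 4 rose and 1 fell, where 15.2% rose and 13.4% fell. The medians of the 9 were 0.36 and 0.10, against 0.01 and -0.00 for all genes. None of the 9 passed the fold limit in either cell type (0.904% and 2.01% of all genes did) with edgeR at the FDR, and at the FDR alone 5 passed in each.

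Twist2 rose most in both. In CD26- NFs it went from 26.5, 28.9 and 25.4 CPM in control medium to between 45.3 and 67.8 CPM in CM (median 60.1), a log2 fold change of 1.11 ± 0.23 (edgeR FDR = 0.00435). Libraries of CD26+ NFs moved from 25.7, 29.3 and 29.3 CPM to between 38.4 and 109.7 CPM (median 72.7), a log2 fold change of 1.45 ± 0.23 (edgeR FDR = 1.82e-04). All 6 CM libraries of either cell type lay above the control libraries. Twist1 stayed between 26.0 and 35.5 CPM in CD26- and between 49.1 and 61.4 CPM in CD26+ libraries, and its log2 fold changes of 0.09 (95% interval -0.09 to 0.26) and -0.07 (-0.23 to 0.10) did not pass.

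As a result the ratio of Twist2 to Twist1 counts within a library went from 0.894 to 0.932 in CD26- control to 1.28 to 2.44 in CD26- CM libraries. In CD26+ NFs it went from 0.476 to 0.535 in control to 0.701 to 2.01 in CM libraries. Such a ratio does not depend on library scaling. An antisense gene, Gm29100, shares 1477 exon bases with Twist2 and had 8 to 35 counts per library, and the strand setting of the counting is not given. The same holds for Zeb2, which shares 653 exon bases with Zeb2os (1 to 11 counts), and for Zeb1, which shares 198 with Gm10125 (2 to 25 counts).

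Prrx1 rose in both cell types and Prrx2 did not. Prrx1 went from 507, 542 and 529 CPM to between 677 and 933 CPM (median 830.1) in CD26- NFs, and from 779.8, 844 and 835 CPM to between 1238 and 1686 CPM (median 1451) in CD26+ NFs. The log2 fold changes were 0.64 ± 0.10 (edgeR FDR = 6.06e-04) and 0.83 ± 0.10 (edgeR FDR = 1.31e-05), without overlap in either. The mean of CD26- NFs in CM, 819 ± 95.2 CPM (SD, n = 6), came to that of CD26+ NFs in control medium, 819.6 ± 34.8 CPM (SD, n = 3).

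Prrx2 fell in CD26+ NFs from 77.4, 91.9 and 85.6 CPM to between 37.1 and 65.1 CPM (median 52.1), a log2 fold change of -0.69 ± 0.15 (edgeR FDR = 0.00292) without overlap. In CD26- NFs it had 37.0, 43.1 and 30.8 CPM in control medium and 24.2 to 40.3 CPM in CM (median 30.9). Its log2 fold change there was -0.24, with a 95% interval from -0.58 to 0.10 (edgeR FDR = 0.340). The Prrx1 to Prrx2 count ratio went from 12.6 to 17.2 up to 20.4 to 37.2 in CD26- NFs, and from 9.18 to 10.1 up to 19.96 to 42.1 in CD26+ NFs.

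**Figure D4:**
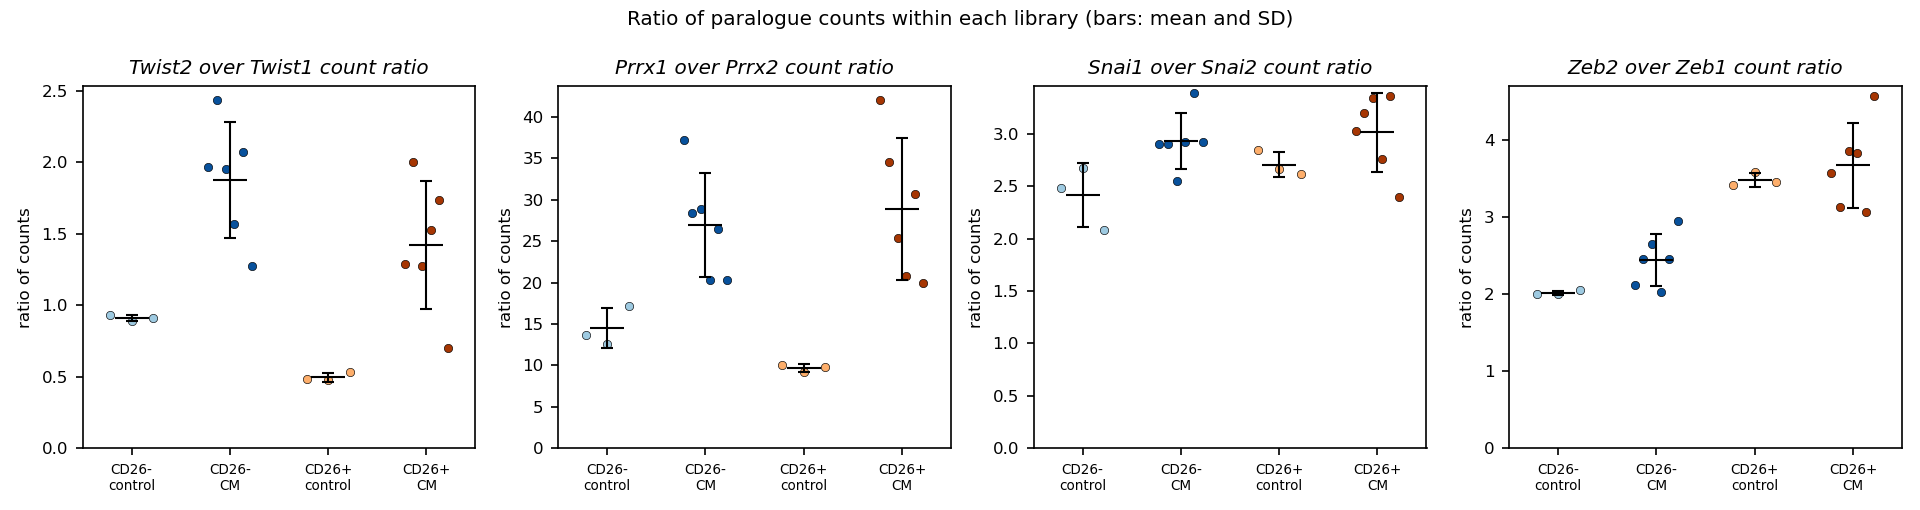
Ratio of the counts of 2 paralogues within each library (vertical axis, from 0) in the 4 groups, with points for libraries and bars for mean and SD. The Twist2 to Twist1 and Prrx1 to Prrx2 ratios were higher in CM than in control medium with no overlap in either cell type, while the Snai1 to Snai2 ratio lay between 2.08 and 3.39 in all 18 libraries.

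The Snail, Zeb and Osr1 genes encode zinc finger factors. Of these, Zeb2 rose in both, from 116, 129 and 131 CPM to between 129 and 189 CPM in CD26- NFs (median 157, log2 fold change 0.36 ± 0.11, edgeR FDR = 0.0346) and from 217, 241 and 242 CPM to between 280.3 and 369 CPM in CD26+ NFs (median 299, 0.40 ± 0.11, edgeR FDR = 0.0101). The call in CD26+ NFs was lost without replicate 10 (0.35, edgeR FDR = 0.0619). Zeb1 had a log2 fold change of 0.08 in CD26- NFs (95% interval -0.18 to 0.35, edgeR FDR = 0.700). The gene rose in CD26+ NFs from 63.5, 67.2 and 70.2 CPM to between 62.5 and 103 CPM (median 88.1), with 0.36 ± 0.12 (edgeR FDR = 0.0403) and overlap in 1 library. The Zeb1 call held in 5 of 15 alternative fits. It was lost in 7 of the 9 that left out 1 library, with an FDR of up to 0.143 without replicate 10, and also with upper-quartile scaling, the epithelial covariate and only the groups compared.

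Snai1 rose in CD26- NFs from 93.1, 99.9 and 73.4 CPM to between 107 and 132 CPM (median 121), without overlap (log2 fold change 0.43 ± 0.12, edgeR FDR = 0.0206). Its call was lost without replicate 3, the lowest control library (0.31, edgeR FDR = 0.144), and with the epithelial covariate (0.32, edgeR FDR = 0.0970). In CD26+ NFs Snai1 had a log2 fold change of 0.00 (95% interval -0.23 to 0.24), and in the single fits that left out replicates 10, 12, 13, 14, 15 or 17 its sign turned. Snai2 passed in neither cell type, with 0.16 (95% interval -0.05 to 0.37) and -0.16 (-0.35 to 0.04).

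Osr1 rose in CD26- NFs from 13.8, 13.2 and 12.8 CPM to between 13.4 and 30.7 CPM (median 21.5), with overlap in 1 library (log2 fold change 0.69 ± 0.22, edgeR FDR = 0.0375). For CD26+ NFs the log2 fold change was 0.10 (95% interval -0.32 to 0.52, edgeR FDR = 0.750). The calls of Osr1 and Zeb2 in CD26- NFs each held in 7 of 15 alternative fits, and with the epithelial covariate they had an FDR of 0.172 and 0.145. Without replicate 3, 2 of the 9 factor genes were called in CD26- NFs, Twist2 and Prrx1, and without replicate 1, 2, 4 or 6 there were 3. Twist2 and Prrx1 passed in all 15 alternatives in both cell types.

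Of 7 tested basal epithelial markers 2 fell with CM in CD26- NFs, where 7.28% of all genes fell, and skeletal muscle genes rose there. Myog, the myogenin gene, had 0.179 CPM in control medium and 5.36 CPM in CM on average, and Des, the desmin gene, 0.916 and 8.84 CPM. Of 9 tested muscle markers 8 rose in CD26- NFs and 0 in CD26+ NFs, where 7.88% and 15.2% of all genes rose. The sum of all 12 muscle markers ran from 50.5 to 77.7 CPM in CD26- control and from 49.9 to 126 CPM in CD26- CM libraries. Acta1, the highest of them, had 63.0 CPM in control medium and 48.5 CPM in CM on average in CD26- NFs, so the sum hides the rise of the others. Over all libraries the markers of endothelium summed to at most 10.2 CPM, those of adipocytes to 16.5 CPM, those of immune cells to 29.7 CPM and those of Schwann cells to 30.9 CPM. Smooth muscle and pericyte markers ran from 352 to 385 CPM in CD26- control, 144 to 370.2 CPM in CD26- CM, 197 to 219 CPM in CD26+ control and 92.1 to 196 CPM in CD26+ CM libraries. With the epithelial covariate, Twist2 (0.99) and Prrx1 (0.54) were the factor genes still called for CM in CD26- NFs, where 963 of all 14273 genes were. The part of muscle and the other cells in the changes of the factor genes was not tested.

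Whether CM acted differently on the 2 cell types was tested as the difference between the CM effects. None of the 9 factor genes passed the FDR in edgeR (4.53% of all tested genes were higher, 3.01% lower and 0.392% past the fold limit), and DESeq2 also called 0. At an unadjusted p under 0.05, 2 did: Snai1 with a difference of -0.43 ± 0.16 (edgeR FDR = 0.107) and Snai2 with -0.32 ± 0.14 (edgeR FDR = 0.146). For Twist2 the difference was 0.34 with a 95% interval from -0.31 to 1.00, and for Prrx1 0.19 with one from -0.10 to 0.48. With the CM line as a replicate block 3 passed, each with the lower CM effect in CD26+ NFs: Osr1 (-0.58, edgeR FDR = 0.00548), Prrx2 (-0.45, edgeR FDR = 0.0259) and Snai1 (-0.44, edgeR FDR = 0.0490). Calls over all 14273 genes also went up with the block, to 2516 from 1075.

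The last comparison asked whether the 6 lines differed, with the 2 cell types as the replicates of a line. Of the 9 factor genes 2 passed, Osr1 (edgeR F = 16.8, FDR = 0.0130) and Prrx2 (F = 14.9, FDR = 0.0162), where 6.56% of 13344 tested genes did. CM of 13-MCB-17 gave the highest Osr1 in both cell types, 30.7 CPM in CD26- and 35.0 CPM in CD26+ NFs. The lowest Osr1 values were 13.4 CPM with 13-MCB-44 in CD26- NFs and 20.1 CPM with 13-MCB-138 in CD26+ NFs.

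Prrx2 was ordered nearly the other way. It was lowest with 13-MCB-17 in both, 24.2 CPM in CD26- and 37.1 CPM in CD26+ NFs, and highest with 13-MCB-138 in CD26- (40.3 CPM) and with 13-MCB-44 in CD26+ NFs (65.1 CPM). Without replicate 13 or 17 the Prrx2 call was lost (edgeR FDR = 0.0639 and 0.0501). Across all 18 libraries, after the group means were taken off, log2 CPM of Osr1 and Prrx2 had a Pearson r of -0.71, and Zeb1 and Prrx1 one of 0.80. These are descriptions over libraries that share lines.

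Twist2 missed the threshold between lines in edgeR (F = 6.08, FDR = 0.0912). It passed in edgeR without the filter on low counts (FDR = 6.97e-06) or without replicate 9 (FDR = 0.00898), and in DESeq2's likelihood ratio test (adjusted p = 0.00217). It was lowest with 13-MCB-138 in both cell types (45.3 and 38.4 CPM), and highest with 13-MCB-90 in CD26- (67.8 CPM) and 10-SJK-221 in CD26+ NFs (109.7 CPM). The CD26+ culture with 13-MCB-138, replicate 18, thus had the smallest rise over the CD26+ control libraries. For the other 6 genes the FDR ran from 0.277 (Snai2) to 0.690 (Twist1), and of these Zeb1 and Prrx1 passed without the filter (edgeR FDR = 0.0392 and 0.0481).

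**Figure D5:**
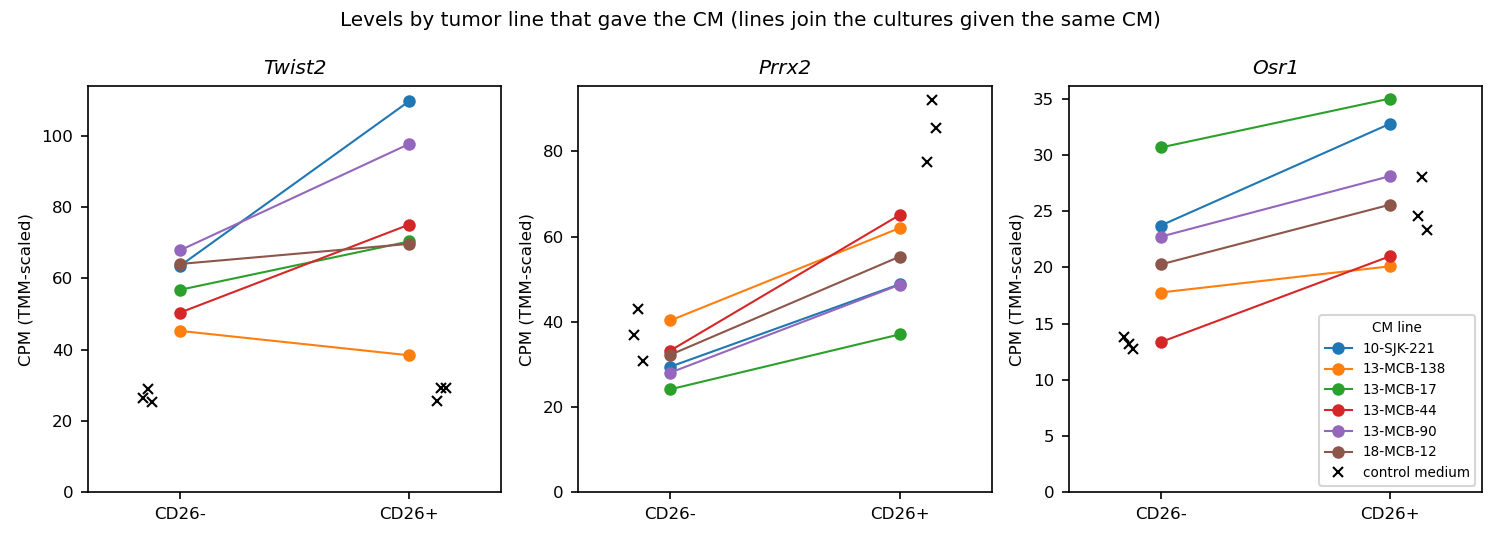
CPM (vertical axis, from 0) of Twist2, Prrx2 and Osr1 in CD26- and CD26+ NFs given CM of the same line (joined points, 1 color per line), with the control libraries as crosses. Osr1 was highest and Prrx2 lowest with 13-MCB-17 in both cell types, and Twist2 was lowest with 13-MCB-138.

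The partners and cofactors of these factors were read from lists chosen for their roles. Their counts stand beside a background, over all tested genes, of 25% higher and 25.4% lower in CD26+ control NFs, and 29.3% each way in CM. For the response to CM it was 7.88% up and 7.28% down in CD26- NFs, and 15.2% up and 13.4% down in CD26+ NFs. All 3 E protein genes (Tcf3, Tcf4 and Tcf12), which encode partners of Twist and Tcf21, were higher in CD26+ NFs in both media, Tcf4 by 0.57 ± 0.07 on the log2 scale in control medium (edgeR FDR = 2.57e-06). Of 4 Id genes, whose products sequester E proteins, 2 were higher in CD26+ control NFs, among them Id3 (log2 fold change 0.76 ± 0.12, edgeR FDR = 3.92e-05). In CM, Id1 rose in CD26- NFs (0.36 ± 0.11, edgeR FDR = 0.0419), and Id2 in CD26+ NFs (0.55 ± 0.12, edgeR FDR = 0.00265).

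Among 10 co-repressor genes, 2 were higher and 4 lower in CD26+ control NFs, with a median of 0.01, near the background of 25% and 25.4%. Ajuba, a LIM protein that binds Snail factors, was lower in CD26+ NFs (-0.70 ± 0.10 on the log2 scale, edgeR FDR = 1.58e-05). With CM 0 of the 10 passed in CD26- NFs, while in CD26+ NFs 2 rose and 3 fell. Ctbp2, a co-repressor of Zeb proteins, rose there from 89.5 ± 3.92 to 128 ± 11.7 CPM (log2 fold change 0.52 ± 0.07, edgeR FDR = 3.42e-05). Of 9 genes for the turnover of Snail and Twist proteins, 2 rose with CM in each cell type and 0 fell, where 7.88% of all genes rose in CD26- and 15.2% in CD26+ NFs. Counts this small are not read as a result about the list.

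Of 13 relatives of the 10 genes, 8 had enough reads to be tested. Osr2, the paralogue of Osr1, was at 0.997 ± 0.493 CPM in CD26- against 6.64 ± 0.498 CPM in CD26+ control NFs (log2 fold change 2.77 ± 0.27, edgeR FDR = 2.82e-07). It fell with CM in both, by -1.26 ± 0.33 and -1.13 ± 0.19 on the log2 scale (edgeR FDR = 0.0163 and 2.93e-04). In CD26- NFs this was a fall to 0.394 ± 0.0887 CPM, near the floor of detection. Osr1 rose there, a call that held in 7 of 15 alternative fits. Shox2, a homeobox gene of limb mesenchyme, was higher in CD26+ NFs (1.07 ± 0.11, edgeR FDR = 3.78e-07), and Scx, a tendon factor, was lower (-1.69 ± 0.26, edgeR FDR = 4.10e-05).

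Of 29 tested other mesenchymal factor genes, 12 were higher and 4 lower in CD26+ control NFs, with a median of 0.31, where 25% and 25.4% of all genes were. Tbx15 (log2 fold change 1.27 ± 0.13), Ebf1 (1.06 ± 0.11) and Runx2 (0.87 ± 0.08) had the smallest p of the higher ones, and Sox11 (-1.92 ± 0.26) was among the lower. With CM, CD26- NFs had 5 of them up and 5 down, and for CD26+ NFs it was 5 up and 9 down. The background was 7.88% and 7.28% in the former and 15.2% and 13.4% in the latter, so the 5 up in CD26+ NFs lay near it. Tbx18 and Tbx3, T-box genes, rose in both, Tbx3 from 27.0 ± 1.35 to 46.1 ± 2.85 CPM in CD26- and from 33.6 ± 2.56 to 69.3 ± 15.7 CPM in CD26+ NFs. Runx2, an osteoblast factor, fell in CD26+ NFs from 125 ± 12.0 to 74.6 ± 5.91 CPM (-0.75 ± 0.07, edgeR FDR = 6.15e-07), more than in CD26- NFs (difference -0.50 ± 0.10, edgeR FDR = 0.00602).

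Structural genes of mesenchyme were read in the same way. Of 19 tested, 13 were higher and 2 lower in CD26+ control NFs, where 25% and 25.4% of all genes were. The list shares genes with the fibroblast markers above, so it is not a separate observation. With CM, 5 passed upward and 3 downward in CD26- cultures, where 7.88% and 7.28% of all genes did. In CD26+ cultures it was 5 and 7, where 15.2% and 13.4% did. Dcn, which encodes decorin, rose by 2.64 ± 0.30 and 3.19 ± 0.31 on the log2 scale (edgeR FDR = 8.75e-05 and 1.48e-06), and Postn, the periostin gene, had -1.29 ± 0.35 and -1.65 ± 0.35 (edgeR FDR = 0.0195 and 0.00190). None of the 16 epithelial junction and keratin genes passed with CM in either cell type at the FDR in edgeR. Of 9 epithelial factors 1 rose in CD26- NFs, Ehf, from 5.86 ± 1.29 to 16.5 ± 7.59 CPM (edgeR FDR = 0.0189), and 0 passed in CD26+ NFs. Of 10 TGF-beta pathway genes, upstream of Snail and Zeb genes in many cells, CM raised 1 and lowered 3 in CD26- cultures, and raised 0 and lowered 2 in CD26+ cultures. Of all genes 7.88% rose and 7.28% fell in the former, and 15.2% rose and 13.4% fell in the latter.

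The genes most like each factor over the 18 libraries were taken as the 3 with the highest Pearson r of log2 CPM among 11124 genes. For Twist2 they were Fmo2, Net1 and Abcc1 (r from 0.966 to 0.976), and for Prrx1 Il1rap, Irak3 and Stat5a (r from 0.986 to 0.987). Snai1 was matched by Nisch, Col16a1 and Kcp, Snai2 by Rasl11a, Galnt13 and P3h3, and Twist1 by Thrb, Islr and Zfp503. Zeb2 was matched by Shc1, Lrp3 and Sgpp1, Prrx2 by Pdlim4, Nfatc4 and Txlna, and Osr1 by Nup188, Acot6 and Ccnh. For Zeb1 they were Tafa2, Nptx1 and Mcfd2 (r from 0.925 to 0.972). These r span 4 groups and follow the group means, and no p is attached to them.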

How the data were processed

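RNA was sequenced as 18 TruSeq stranded mRNA libraries on HiSeq or NovaSeq instruments. Which instrument read which library is not given in the sources used here, so no batch was tested. Per the labels, the authors aligned reads to GRCm38 with HISAT2 2.1.0 and counted them per gene with HTSeq. The deposited values are raw counts.

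From these counts 14273 genes were kept by filterByExpr and scaled by TMM. Groups were compared in 1 model of 4 groups with edgeR 4.0.16 (quasi-likelihood test, R 4.3.3), with Benjamini-Hochberg FDR under 0.05 over all tested genes and, as a second rule, a log2 fold change over 2 or under -2. Lines were compared by an F test in the 12 CM libraries with cell type as a term (13344 genes). CPM are counts scaled to the TMM-adjusted library size, and 3 counts were taken as the floor of detection, which covers counting error only. Totals of 9725723 to 14585349 counts make this floor 0.203 to 0.290 CPM per library. Replicates differed by more than sampling noise (lowest chi-square per degree of freedom 3.10). 1 row without a gene held 0 counts.

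CD26- and CD26+ cultures given CM of the same line deviated together from their group means (r from 0.247 to 0.406 in 6 of 6 pairs, against -0.315 to 0.242 in other pairs). The main fit between groups held no term for the line, and this pairing entered only an alternative fit. Alternatives were DESeq2 1.42.0, other scalings, no filter, only the groups compared, an epithelial marker covariate, the CM line as a block and leaving out each library. Fits were also run on simulated counts, whose outcome is not given here. All 10 genes are named. Of each other list, up to 3 genes per direction could be named, ranked by p within those called and holding at least 5 CPM in a group. Genes of like pattern needed 5 CPM in a group. The factor genes and the lists were chosen with earlier results of these data known.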

Additional observations from a re-analysis of the deposited data

Results flagged for a closer look

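A library far from the others of its group was looked for in the 18 combinations of a factor gene and a CM group, and 2 met Dixon's limit for 6 libraries at the 5% level, where chance gives about 5% of groups. Both lay in the CD26+ culture given CM of 13-MCB-44 (replicate 16). Snai2 had 74.8 CPM there, with 85.1 CPM in the nearest library (gap to range 0.628). Twist1 had 49.1 CPM, with 54.4 CPM in the nearest library (gap to range 0.744). Neither gene passed the FDR for CM in CD26+ NFs.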

How the results depend on the processing

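The counts of called factor genes are given over the 9 tested, and without a filter on low counts over all 10. With the epithelial covariate 2 were called for CM in CD26- NFs in place of 5. With the CM line as a replicate block, 3 in place of 0 passed for the difference between CM effects. Without a filter on low counts, 5 in place of 2 passed between lines (Twist2, Zeb1 and Prrx1 beside Osr1 and Prrx2), and 8 in place of 7 between cell types in control medium, with Tcf21 as the gain. Leaving out 1 library at a time gave 2 to 5 for CM in CD26- NFs (2 without replicate 3), 3 to 5 in CD26+ NFs (3 without replicate 10), 7 to 7 between cell types in control medium and 7 to 9 in CM, 0 to 0 for the difference, and 1 to 3 between lines (1 without replicate 13 or 17). No factor gene that passed in the 4-group model changed direction under these alternatives. Osr1 between the cell types in CM, which passed with the block at 0.35, was at -0.11 with the covariate. Over all genes, the covariate gave 963 in place of 2164 calls for CM in CD26- NFs, 2718 in place of 7186 between cell types in control medium and 3613 in place of 8360 in CM. The block gave 2516 in place of 1075 for the difference. Between lines, DESeq2 gave 1387 and no filter 2475 in place of 876. Leaving out 1 library gave 825 to 2748 for CM in CD26- NFs, 339 to 2345 for the difference and 360 to 2060 between lines. The cause was not tested. Other scalings shifted the comparisons by no more than -0.0334 on the log2 scale, as taken from the group means of the scaled library sizes. With 3 control libraries per cell type, differences as small as those of Zeb1 and Snai2 in CM have intervals that include 0 in at least 1 cell type.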
